A study of Mus musculus with 2 samples.

Results

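Arg1, Nos2, Acod1, Il4i1 and Ido1 encode enzymes that use arginine, cis-aconitate, aromatic amino acids or tryptophan, and Slc7a2 encodes a carrier for cationic amino acids such as arginine. The 6 genes were chosen by symbol, and all 6 were found among the 12584 genes of a single-cell RNA count matrix of CD45+ cells, the leukocytes, sorted live from tumours of YUMM3.3, a mouse melanoma line with mutant Braf and deleted Cdkn2a. NTT tumours grew from the line that had not met targeted therapy, and RTT tumours from cells derived from it that resist BRAF inhibition and were cultured in dabrafenib. Both lines were injected into C57BL6 mice, and tumours were taken on day 12, with 1 sample and 1 library per line, so the line, the mice, the sort and the library cannot be told apart in any comparison. The sample labels used here give no number of tumours per library. Each cell carries a deposited population name, 16 in all, and these names rest on clusters of the same expression values mapped jointly with other samples of the study.

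Arginase 1 splits arginine into ornithine and urea, whereas inducible nitric oxide synthase, the product of Nos2, turns the same substrate into nitric oxide and citrulline, and Slc7a2 carries arginine into the cell. Acod1 makes itaconate, a macrophage and neutrophil metabolite that slows succinate dehydrogenase. Il4i1, a secreted oxidase of aromatic amino acids, and Ido1, which opens the tryptophan ring, both feed ligands to the aryl hydrocarbon receptor. In tumours these genes are known as products of myeloid cells that can limit T cells by removing amino acids or by their products.

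Sequencing gave 19634099 unique molecular identifiers (UMIs, each a counted molecule) in 2975 cells of the NTT library, and 44712071 in 4840 cells of the RTT library. The median cell held 5398 UMIs in NTT and 8335.5 in RTT, so shares of cells with a UMI are also given after every cell was thinned to 2000 UMIs. Of 7808 distinct barcodes, 7 occurred in both libraries. The 6 genes together held 6797 NTT and 14616 RTT UMIs. Levels are UMI counts summed over a set of cells and scaled to 1000000 (CPM), with exact Poisson 95% intervals, and differences are log2 ratios of CPM, RTT over NTT, with the exact 95% interval of the pair of counts. These intervals cover counting error only. No test between the libraries was possible with 1 sample per group, and no p-value is given. Checked against fixed marker lists, the population named Macro held 27597 CPM of 7 macrophage markers in NTT and 24228 CPM in RTT, and NTT TAM_Spp1 held 8324 CPM of them beside 6711 CPM of 4 monocyte markers. RTT TAM_Spp1 held 21350 CPM of the macrophage and 2288 CPM of the monocyte markers, so cells of that name differed between the libraries. Macro also held 4266 CPM of the monocyte markers in NTT and 2541 CPM in RTT. Markers of 2 dendritic cell populations were present in it too, at 295 and 288 CPM (cDC2) and 681 and 587 CPM (cDC1). The cDC2 cells themselves held 867 and 1245 CPM of the cDC2 markers. NTT TAM_cycling held 27701 CPM of the macrophage markers but also 2270 CPM of 4 B and plasma cell markers (0.164 CPM in RTT) and 1257 CPM of 3 osteoclast-like markers (133 CPM in RTT). Of 29 RTT cells named Neutro, 15 carried at least 1000 CPM of C1qa, a macrophage gene.

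Over all cells the members went both ways. Nos2, Acod1, Il4i1 and Ido1 were at least 2-fold lower in RTT, 4 of 6 members, where 9.6% of 8220 genes with at least 500 UMIs were that low. Slc7a2 was at least 2-fold higher, 1 of 6 members, where 8.18% of genes were that high, and Arg1 stood just under that limit. Of the 6 members, 4 reached the minimum of 500 UMIs, and Ido1 and Slc7a2 did not. The median log2 ratio of the 8220 genes was 0.10.

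**Figure D1:**
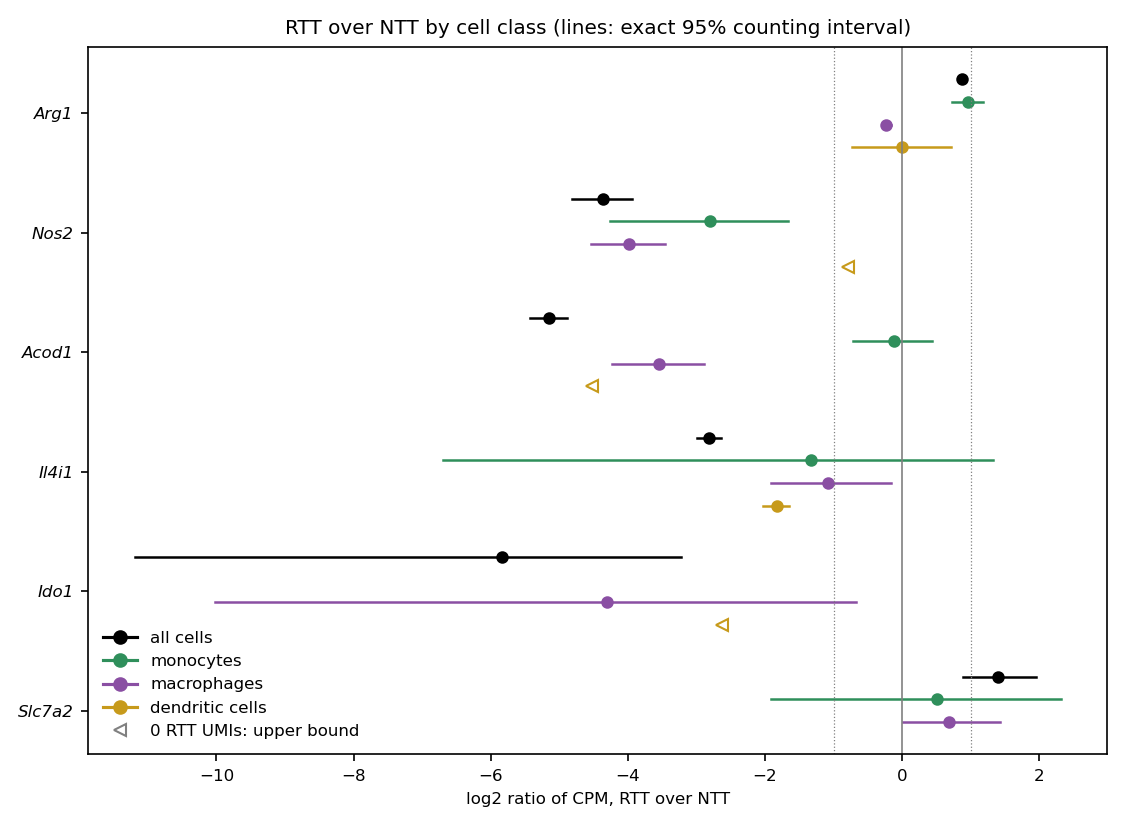
Log2 ratio of CPM, RTT over NTT (x axis), for the 6 genes (y axis) over all cells and within 3 cell classes; points are ratios, lines exact 95% counting intervals, open triangles upper bounds where RTT held 0 UMIs, and dotted lines mark 2-fold. Nos2, Acod1, Il4i1 and Ido1 lie left of the 2-fold line over all cells, from -5.83 to -2.82, while Slc7a2 lies at 1.40 and Arg1 changes side between monocytes (0.96) and macrophages (-0.23).

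Arg1 (chromosome 10, 24915221 to 24927484, minus strand, mm10) was the most abundant member. It held 3318 UMIs and 169 CPM (163 to 175) in the NTT library and 13879 UMIs and 310.4 CPM (305 to 316) in the RTT library, a log2 ratio of 0.88 (0.82 to 0.93). Macrophages held 72.5% of its NTT UMIs and 97.8% of its RTT UMIs. The gene was found in 12.2% of NTT cells and in 30.5% of RTT cells, and after thinning in 8.05% and 18.4%. The UMIs were packed into few cells: the 144 NTT cells with at least 5 Arg1 UMIs held 89.3% of them, and 640 RTT cells had as many, up to 307 UMIs in 1 cell.

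Within macrophages the order of the summed CPM was the other way round. Arg1 stood at 404 CPM (388 to 420) in NTT and 345 CPM (339 to 350) in RTT macrophages, a log2 ratio of -0.23 (-0.29 to -0.17). This ratio was -0.70 after thinning and -0.66 as a mean of per-cell CPM, both beyond the counting interval. Of the 2407 NTT macrophage UMIs, 1079 lay in the 100 Macro cells and 397 in the 17 TAM_C1q cells. The share of macrophages with Arg1 was not lower in RTT, at 26.5% in NTT and 35.2% in RTT. After thinning these shares were 19.6% (16.5 to 23.1) and 21.4% (20.1 to 22.7). In monocytes Arg1 was 96.0 CPM (89.5 to 103) in NTT and 186 CPM (162 to 213) in RTT, a log2 ratio of 0.96 (0.73 to 1.18). Dendritic cells held 34 and 35 Arg1 UMIs, with a log2 ratio of -0.01 (-0.73 to 0.72).

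Levels varied widely between populations. In NTT the highest level was 2893 CPM (2615 to 3192) in TAM_C1q, which held 17 cells, followed by 1554 CPM in Macro and 840.2 CPM in TAM_Spp1, macrophages named for osteopontin. These 3 populations did not overlap in their intervals, and every other NTT population lay at 111 CPM or below. In RTT the order was led by TAM_Spp1 at 928 CPM (900 to 957) and TAM_C1q, the complement-rich macrophages, at 442 CPM (433 to 452), again without overlap. RTT Neutro, Infl_Mono, TAM_H2Ab1 and Monocyte_1 followed between 177 and 280.0 CPM, each overlapping the next. NK_cells, which should lack the gene, gave 1.51 CPM (2 UMIs) in NTT and 0 UMIs in 51 RTT cells, with an upper interval limit of 10.0 CPM. A population is called above NK_cells where its interval lies wholly above theirs. Of the other 10 NTT populations with at least 20 cells, which leaves out TAM_C1q, 8 lay above the NK_cells interval, and of the other 13 RTT populations, 9 did.

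**Figure D2:**
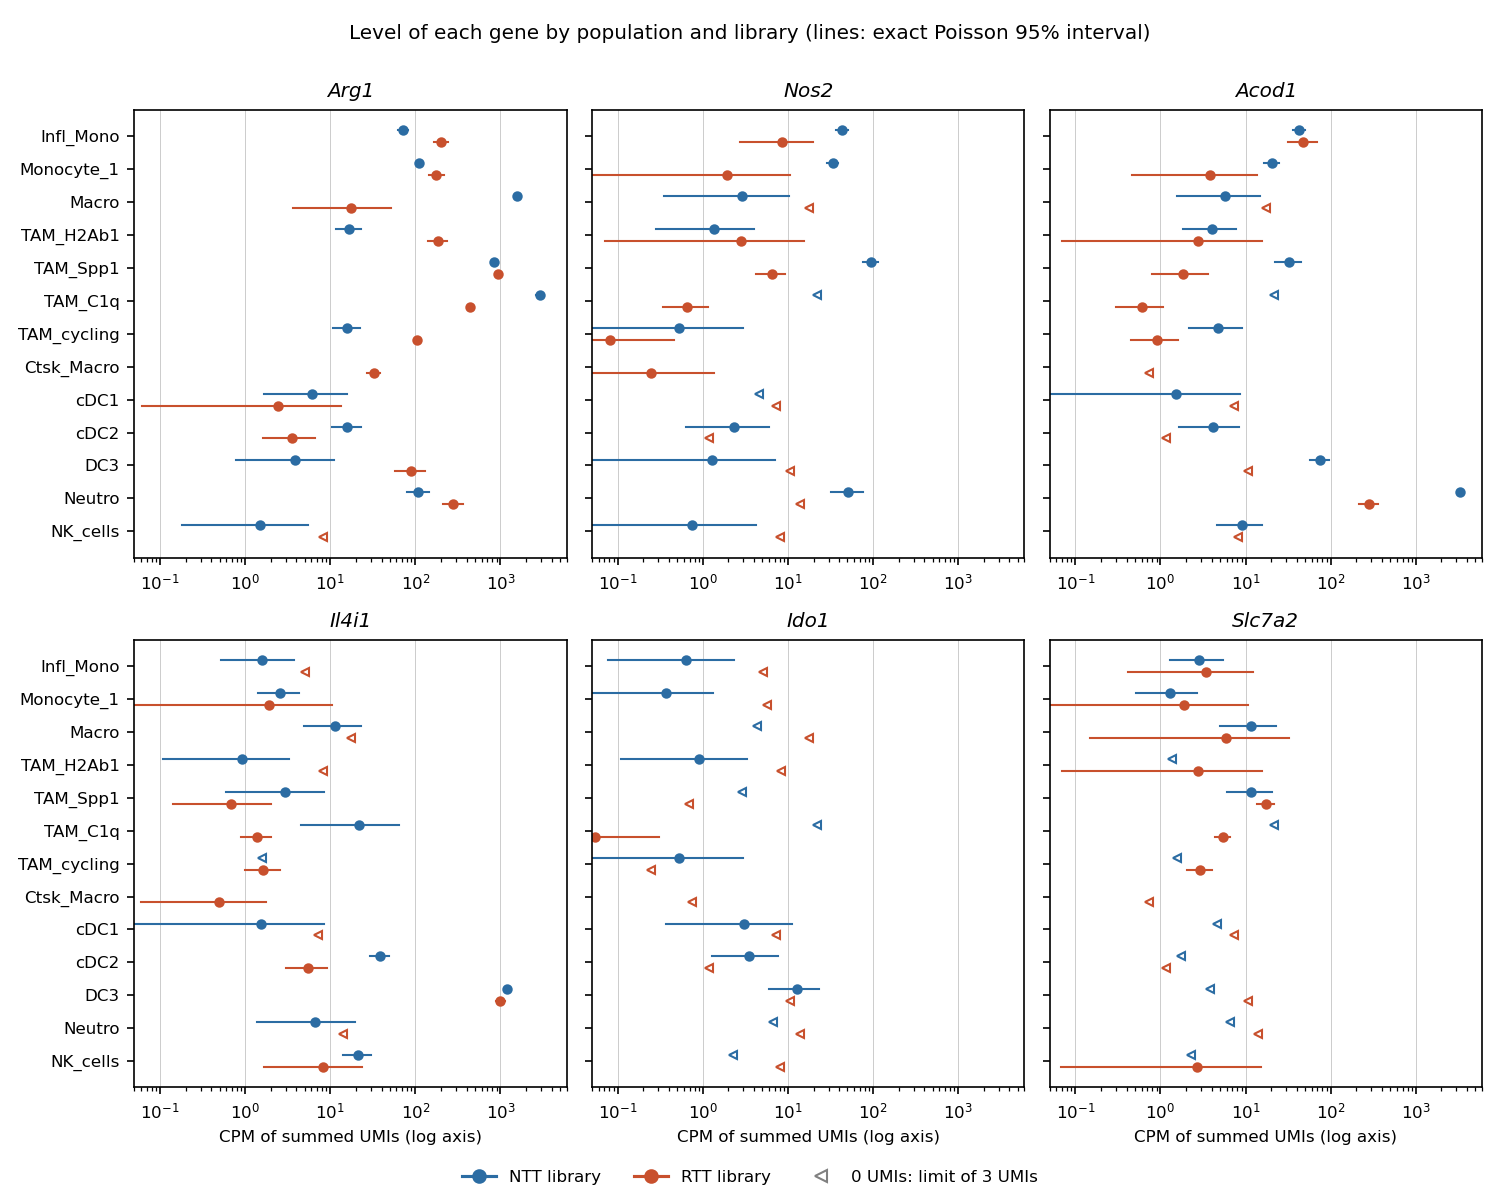
CPM of the summed UMIs (x axis, log scale) of each gene in 13 populations (y axis) of the NTT and RTT libraries; points are levels, lines exact Poisson 95% intervals (a line at the left edge runs on beyond it) and open triangles the limit that 3 UMIs would give where there were 0. Arg1 is high in TAM_Spp1 of both libraries (840.2 and 928 CPM), Acod1 in NTT Neutro (3310.1 CPM) and Il4i1 in DC3 of both (1205 and 992 CPM).

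Compared population by population, Arg1 differed least in TAM_Spp1. It was present in 37.8% of 193 NTT and 44.8% of 719 RTT TAM_Spp1 cells, or 29.3% (23.0 to 36.3) and 34.7% (31.2 to 38.4) after thinning, and its log2 ratio was 0.14 (0.04 to 0.25). TAM_Spp1 cells held 6711 CPM of the monocyte markers in NTT and 2288 CPM in RTT, and the part of this in the ratio was not tested. TAM_cycling, the cycling macrophages, stood at 15.8 CPM in NTT and 103 CPM in RTT, a log2 ratio of 2.71 (2.18 to 3.28), and from 1.94% to 10.3% of thinned cells. The median depth of these cycling cells was 18157 UMIs in NTT and 12029 in RTT, and the part of this and of the B, plasma and osteoclast-like markers of the NTT cells in the Arg1 ratio was not tested. Infl_Mono, the inflammatory monocytes, held 70.9 and 200.4 CPM (log2 1.50, 1.16 to 1.83) and Monocyte_1 held 111 and 177 CPM (0.67, 0.34 to 0.99). In cDC2 cells the gene was lower in RTT, at 15.8 and 3.52 CPM (log2 -2.17, -3.44 to -1.04), with 12 of the 27 NTT UMIs in 1 cell. DC3 cells, the mature dendritic cells, held 3 UMIs in NTT and 25 in RTT (log2 4.54, 2.82 to 6.91), and the 25 lay in 4 cells. Macro is given no ratio, since 26 RTT cells carried that name, with 3 Arg1 UMIs in 1 of them.

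Several of these values moved with C1qa. In RTT, 45 of 94 Infl_Mono cells (47.9%) carried C1qa at 1000 CPM or more against 23.4% of 620 NTT cells, and the summed level of all 7 macrophage markers was 8091 CPM in NTT and 32493 CPM in RTT Infl_Mono, with none of the 7 at 0. These 45 cells held 103 of the 118 RTT Arg1 UMIs. Without C1qa-rich cells, a choice made after the values were seen, Arg1 in Infl_Mono was 82.5 CPM in NTT and 78.6 CPM in RTT, a log2 ratio of -0.07 (-0.94 to 0.69). Monocyte_1 behaved differently: its macrophage marker sum was 18203 and 17114 CPM, and without C1qa-rich cells Arg1 stood at 144 and 328 CPM, a log2 ratio of 1.19 (0.80 to 1.57). Monocytes as a class kept a log2 ratio of 0.91 (0.57 to 1.24). In DC3 the ratio without such cells was 2.51 (0.14 to 5.19), on 3 and 5 UMIs. Of the 60 Arg1 UMIs in RTT Neutro, 59 lay in the 15 C1qa-rich cells, and the other 14 cells held 1.

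**Figure D3:**
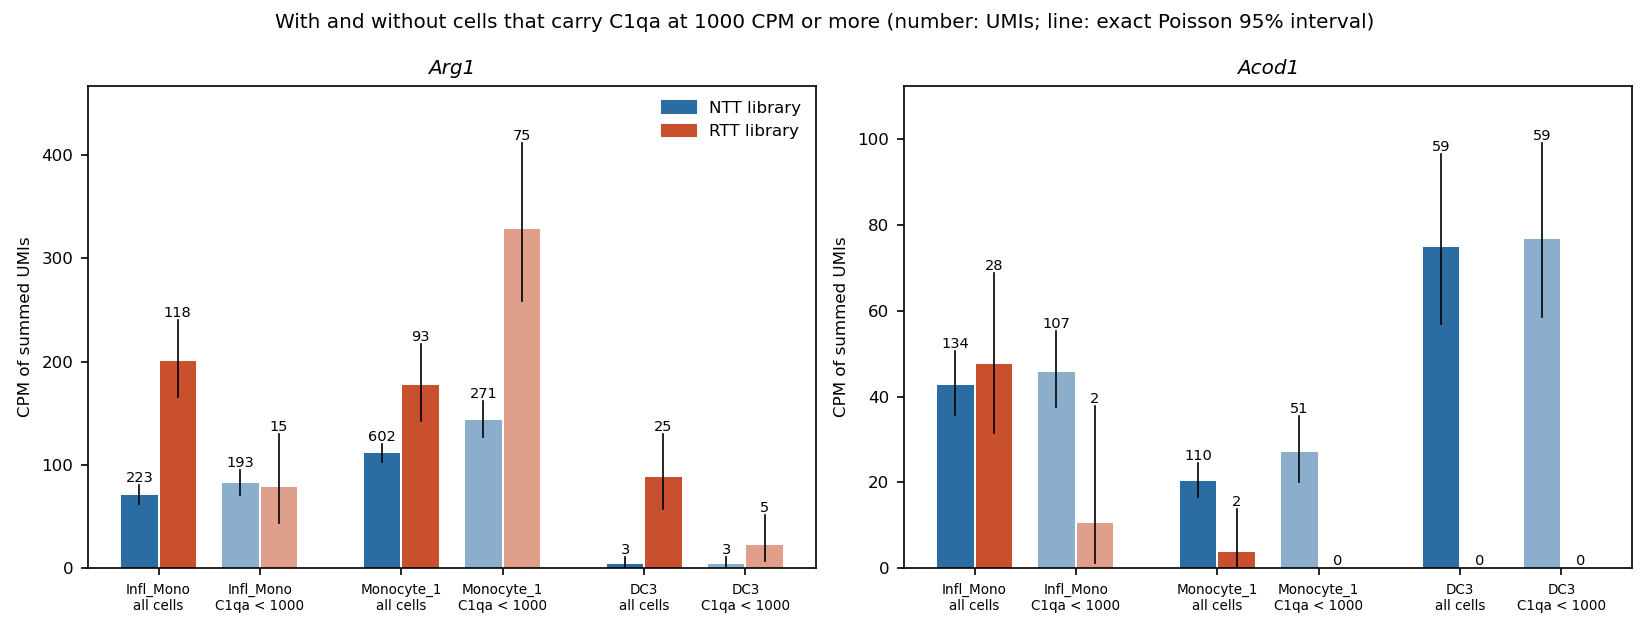
CPM (y axis) of Arg1 (left) and Acod1 (right) in Infl_Mono, Monocyte_1 and DC3 of both libraries, for all cells and for cells with C1qa under 1000 CPM (paler bars); numbers are UMIs and lines exact Poisson 95% intervals. In Infl_Mono without C1qa-rich cells, RTT Arg1 is at 78.6 CPM in place of 200.4 and RTT Acod1 at 10.5 CPM in place of 47.5.

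Genes that differed between Arg1-rich and Arg1-free macrophages were listed next, as a description of cells chosen by their own Arg1 count. In RTT TAM_Spp1, the 169 cells with at least 5 Arg1 UMIs held 911 CPM of Hilpda, a hypoxia-inducible lipid droplet gene, and the 397 cells without Arg1 held 59.3 CPM, a log2 ratio of 3.94 (3.69 to 4.21). In RTT TAM_C1q (380 and 1186 cells) that ratio was 3.03 and in RTT TAM_cycling (63 and 724 cells) 3.47. Tnfrsf9, a T cell costimulatory receptor gene, and Slc2a1, the glucose transporter gene, were likewise higher in Arg1-rich cells of these 3 RTT populations, by 2.98 to 4.18 and by 1.12 to 1.78 on the log2 scale. Clec12a, a lectin receptor gene, and Tmem176a were lower in all 3. Tnfrsf9 was also higher in Arg1-rich NTT TAM_Spp1 cells (1.80, 0.46 to 3.20, on 13 and 9 UMIs), as was Rgs1, a regulator of G protein signalling (3.01 in NTT and 1.45 to 2.72 in the RTT populations). Ccl24 was higher in TAM_Spp1 of both libraries (3.62 and 5.41), but was found in only 8 of 41 NTT and 12 of 169 RTT Arg1-rich cells. Its ratio was -0.46 (-2.26 to 1.03) in RTT TAM_C1q and 2.57 (-0.20 to 5.13) in RTT TAM_cycling. Other genes differed between the libraries: in NTT TAM_Spp1, Hilpda was 619 and 575 CPM in the 41 Arg1-rich and 120 Arg1-free cells (log2 0.11, -0.18 to 0.38), while Mrc1, the mannose receptor gene, was higher by 3.48 and C1qa by 2.53. In RTT TAM_Spp1 the ratios of Mrc1 and C1qa were 0.58 and -0.13. Arg1-rich cells were deeper, with median depths of 5674 against 4777.5 UMIs in NTT TAM_Spp1 and 17330 against 11489.5 in RTT TAM_cycling. The part of depth in these ratios was not tested, nor was the difference between NTT and RTT cells. The macrophage and monocyte markers of TAM_Spp1 also differed between the libraries, and their part was not tested either.

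**Figure D4:**
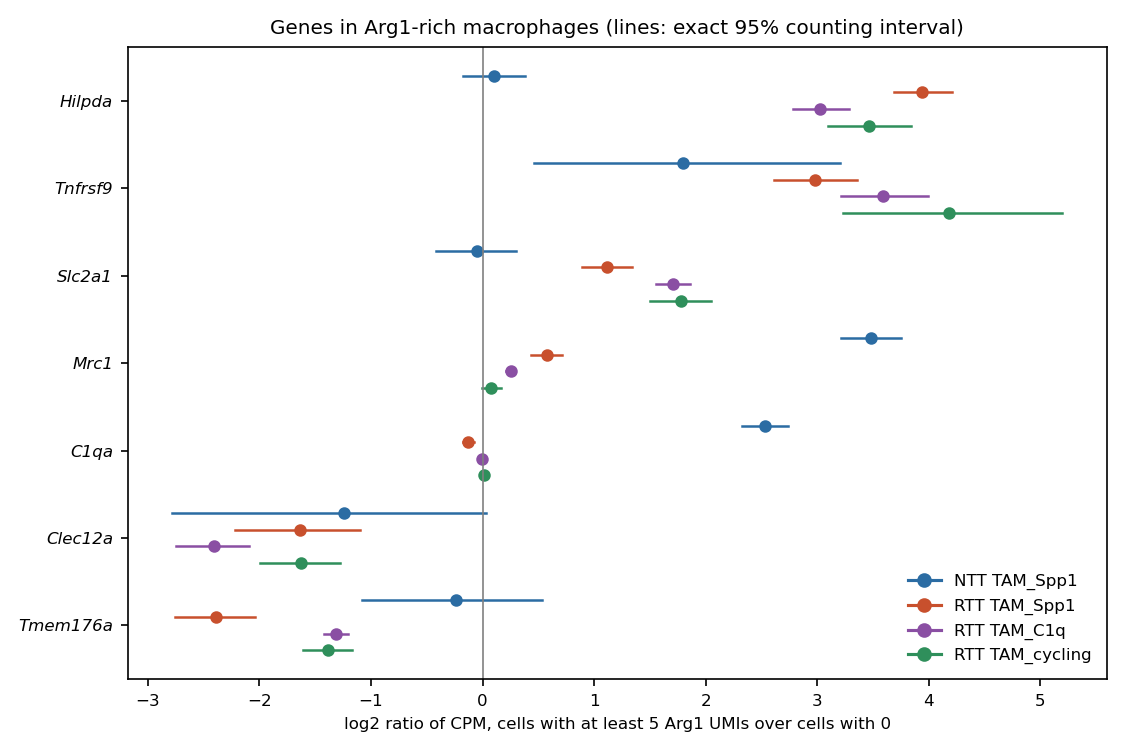
Log2 ratio of CPM (x axis) between cells with at least 5 Arg1 UMIs and cells with 0, for 7 genes (y axis) in NTT TAM_Spp1 and 3 RTT macrophage populations; points are ratios and lines exact 95% counting intervals. Hilpda lies at 0.11 in NTT TAM_Spp1 and from 3.03 to 3.94 in the RTT populations, and Mrc1 lies at 3.48 in NTT TAM_Spp1 and from 0.08 to 0.58 in RTT.

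Slc7a2 (chromosome 8, 40862396 to 40922308, plus strand, with an antisense gene at its start) supplies the substrate of Arg1 and Nos2. It held 36 UMIs and 1.83 CPM (1.28 to 2.54) in NTT and 216 UMIs and 4.83 CPM (4.21 to 5.52) in RTT, a log2 ratio of 1.40 (0.88 to 1.95). Macrophages held 20 of the NTT and 212 of the RTT UMIs, at 3.35 and 5.38 CPM, and their log2 ratio was 0.68 (0.02 to 1.42). After thinning, the gene was seen in 1.22% of NTT and 1.10% of RTT macrophages. Its highest level was in TAM_Spp1, at 11.7 CPM in NTT and 17.2 CPM in RTT (log2 0.56, -0.33 to 1.58). In NTT, TAM_Spp1 and Macro (11.5 CPM) lay above the NK_cells interval (0 UMIs), and in RTT no population did, with NK_cells at 2.71 CPM on 1 UMI. A single RTT TAM_Spp1 cell held 17 Slc7a2 and 307 Arg1 UMIs, the most of either gene in any cell. Dendritic cells of both libraries held 0 UMIs.

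Slc7a2 was found mostly in cells that also held Arg1. Of 133 RTT macrophages with an Slc7a2 UMI, 73.7% (65.3 to 80.9) had Arg1, against 33.9% (32.4 to 35.4) of the other macrophages. After thinning these shares were 65.9% and 20.9%. The median depths were 10756 and 8970 UMIs. The pair went together within TAM_C1q as well, with Arg1 in 82.8% of 64 Slc7a2-bearing cells and 39.3% of the rest, and within TAM_Spp1, with 77.1% of 35 and 43.1%.

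Nos2 (chromosome 11, 78920787 to 78960254, plus strand) held 450 UMIs and 22.9 CPM (20.9 to 25.1) in NTT and 50 UMIs and 1.12 CPM (0.83 to 1.47) in RTT, a log2 ratio of -4.36 (-4.81 to -3.93), or 20.5-fold lower. It was found in 201 NTT and 19 RTT cells. The difference was present within classes: in monocytes 37.0 and 5.29 CPM (log2 -2.80, -4.26 to -1.67), and in macrophages 17.3 and 1.09 CPM (-3.98, -4.53 to -3.46). NTT monocytes held 318 UMIs in 151 of 1615 cells, and RTT monocytes 6 UMIs in 3 of 199 cells. Of the 103 Nos2 UMIs in NTT macrophages, 97 lay in TAM_Spp1, whose NTT cells also held 6711 CPM of monocyte markers.

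In NTT the highest Nos2 level was 94.3 CPM (76.5 to 115) in TAM_Spp1, whose interval lay just above that of Neutro (50.8 CPM, 32.2 to 76.2). Infl_Mono (43.3 CPM) and Monocyte_1 (33.6 CPM) came next, each overlapping the one before. All 4 lay above NK_cells (0.75 CPM), and no other NTT population with at least 20 cells did. Of the 97 Nos2 UMIs in NTT TAM_Spp1, 29 lay in 1 cell. Whether the TAM_Spp1 interval stays above that of Neutro without that cell was not tested. In RTT none of the other 13 populations lay above NK_cells, which held 0 UMIs. TAM_Spp1 held 28 of the 50 RTT UMIs, at 6.42 CPM (log2 -3.88, -4.54 to -3.26), and 10 of them were in 1 cell. Infl_Mono went from 43.3 to 8.49 CPM (-2.35, -4.00 to -1.09), with 5 RTT UMIs. Without C1qa-rich cells the Nos2 ratio in monocytes was -2.73 (-5.02 to -1.16).

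Arg1 and Nos2, which compete for arginine, were found together in NTT cells. Of 181 NTT monocytes with Arg1, 23.2% (17.3 to 30.0) had Nos2, against 7.60% (6.28 to 9.10) of the other monocytes, and after thinning 16.5% and 4.51%. In NTT macrophages Nos2 was in 17 of 154 cells with Arg1 and in 3.27% of the rest, although the cells with Arg1 were shallower (6483.5 against 9698 UMIs). Of these 17 cells, 16 were TAM_Spp1, the population highest in Nos2. Within NTT TAM_Spp1 the shares were 21.9% (13.1 to 33.1) and 9.17% (4.67 to 15.8), with overlapping intervals. After thinning they were 14.3% and 6.67%. Acod1 did not follow Arg1 over NTT monocytes as a class. It was in 9.39% of Arg1-bearing and 9.55% of other NTT monocytes, and after thinning in 2.75% and 4.79%. Before thinning the populations went opposite ways, with overlapping intervals. In Infl_Mono the shares were 22.2% (12.0 to 35.6) and 10.6% (8.19 to 13.4), or 2.86% and 5.68% after thinning. In Monocyte_1 they were 3.94% (1.29 to 8.95) and 8.75% (6.95 to 10.8), or 2.70% and 4.04% after thinning. After thinning both populations thus had the lower share in Arg1-bearing cells, on 1 cell with both genes in Infl_Mono and 2 in Monocyte_1.

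Acod1 (chromosome 14, 103046977 to 103056573, plus strand) had the lowest ratio among the 4 members with at least 500 UMIs. It held 1886 UMIs and 96.1 CPM (91.8 to 100.5) in NTT and 121 UMIs and 2.71 CPM (2.25 to 3.23) in RTT, a log2 ratio of -5.15 (-5.43 to -4.88). Neutrophils carried it: 1500 of the NTT UMIs lay in 91 Neutro cells, at 3310.1 CPM (3145 to 3482), in 93.4% of those cells and 85.2% after thinning. The 29 RTT Neutro cells held 60 UMIs at 280.0 CPM (214 to 360). Without C1qa-rich cells these levels were 3836 CPM in 78 NTT cells and 769 CPM (511 to 1112) in 14 RTT cells. The name Neutro covered 91 of 2975 NTT and 29 of 4840 RTT cells.

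Outside Neutro, Acod1 stood at 20.1 CPM in NTT and 1.37 CPM in RTT, a log2 ratio of -3.88 (-4.29 to -3.48). Infl_Mono (42.6 CPM), TAM_Spp1 (32.1 CPM) and Monocyte_1 (20.3 CPM) came after Neutro and DC3 in the NTT order, each overlapping the next. NK_cells gave 9.04 CPM (12 UMIs, in 4.49% of 178 cells with a median depth of 5358.5 UMIs), and 5 NTT populations, Macro, TAM_cycling, TAM_H2Ab1, cDC1 and cDC2, lay at or below that background. In macrophages the log2 ratio was -3.55 (-4.23 to -2.89), on 55 and 31 UMIs, and the NTT share of 4.81% of macrophages was near the NK_cells share. In dendritic cells 67 NTT UMIs stood against 0, at least 23.1-fold lower by a floor of 3 UMIs per library, but 59 of the 67 lay in 1 DC3 cell with 37889 CPM of S100a8 and S100a9, neutrophil genes. Without that cell the bound on the log2 ratio was -1.46, on 8 and 0 UMIs.

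In monocytes, Acod1 was 28.6 CPM in NTT and 26.5 CPM in RTT, a log2 ratio of -0.11 (-0.71 to 0.44). Of the 30 RTT UMIs, 28 lay in the 89 C1qa-rich cells and 13 in 1 cell of them. Without C1qa-rich cells the levels were 37.6 CPM on 160 UMIs and 4.56 CPM on 2 UMIs, a log2 ratio of -3.04 (-6.10 to -1.16). In Monocyte_1 the gene went from 20.3 to 3.81 CPM (log2 -2.42, -5.48 to -0.53) with all cells included. What part C1qa-rich cells had in the Arg1 and Acod1 values of monocytes was not tested beyond leaving them out.

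Il4i1 (chromosome 7, 44816387 to 44840809, plus strand) shares its locus with the same-strand Nup62 and the opposite-strand Tbc1d17, which covers its 3′ end. Mature dendritic cells held nearly all of it. DC3 gave 87.8% of its 1082 NTT UMIs and 80.5% of its 349 RTT UMIs. Over all cells it went from 55.1 CPM (51.9 to 58.5) to 7.81 CPM (7.01 to 8.67), a log2 ratio of -2.82 (-3.00 to -2.64).

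Within DC3 the difference was far smaller. Levels were 1205 CPM (1129 to 1284) in 135 NTT cells and 992 CPM (880 to 1115) in 57 RTT cells, a log2 ratio of -0.28 (-0.48 to -0.09). The gene was found in 87.4% and 86.0% of these cells, and in 78.1% and 75.0% after thinning. Without C1qa-rich cells the levels were 1230 and 1149 CPM (log2 -0.10, -0.30 to 0.10). Other scalings shift all DC3 ratios by -0.14 (TMM) or -0.16 (DESeq2). In cDC2 the gene was lower in RTT, 38.1 and 5.47 CPM (log2 -2.80, -3.75 to -1.95), with 19 of 65 NTT UMIs in 1 cell. NK_cells gave 21.1 CPM (14.0 to 30.5) in NTT and 8.14 CPM in RTT, and DC3 alone had an interval wholly above theirs, while that of NTT cDC2 (29.4 to 48.6) overlapped it. The Il4i1 values of monocytes (2.21 and 0.88 CPM) and macrophages (2.68 and 1.27 CPM) lay below those of NK_cells. A single RTT TAM_cycling cell held 17 of the 50 macrophage UMIs.

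Promoter sequence was matched in the RefSeq table for 2 of the 6 members, Acod1 and Il4i1, both lower in RTT, and the 250 bases before each RefSeq start are shown. Both windows are from build GRCm38.p6, plus strand, at chr14:103046762-103047011 and chr7:44836038-44836287. These RefSeq starts are not the gene starts given above. The Il4i1 window lies inside the gene span of 44816387 to 44840809, and the Acod1 window runs past the gene start at 103046977. Capitals mark matches, on either strand, to TATAAA (the TATA box, in 12.4% of 32851 promoters of this length) or to an NF-kappa-B core, GGG and CC with 5 bases between (in 45.8%).
Acod1: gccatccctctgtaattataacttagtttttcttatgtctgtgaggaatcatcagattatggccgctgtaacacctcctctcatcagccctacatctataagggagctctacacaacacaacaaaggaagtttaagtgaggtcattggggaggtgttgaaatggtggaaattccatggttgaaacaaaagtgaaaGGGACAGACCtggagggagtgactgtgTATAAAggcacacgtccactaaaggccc
Il4i1: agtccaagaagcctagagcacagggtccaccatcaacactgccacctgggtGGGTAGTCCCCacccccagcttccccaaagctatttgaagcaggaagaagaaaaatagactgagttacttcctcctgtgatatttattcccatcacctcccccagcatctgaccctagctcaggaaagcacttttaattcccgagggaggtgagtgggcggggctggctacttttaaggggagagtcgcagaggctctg
The TATAAA match of Acod1 lies 28 to 23 bases before its RefSeq start and its NF-kappa-B core match 55 to 46 bases before it. The overlapping matches of Il4i1 lie 199 to 189 bases before its RefSeq start. The core of interferon response elements (GAAA repeated after 2 bases), interferon gamma activated sites (TTC and GAA with 3 bases between) and STAT6 sites (TTC and GAA with 4 between), held by 2.98%, 7.02% and 5.85% of promoters, had no match in either window. These are letter matches in a window and not binding.

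Ido1 (chromosome 8, 24584136 to 24597009, minus strand) was the rarest member. It held 25 UMIs in 17 NTT cells, 1.27 CPM (0.82 to 1.88), and 1 UMI in RTT, a log2 ratio of -5.83 (-11.19 to -3.22). Dendritic cells held 18 of the 25, with 10 in 9 DC3 cells, 6 in 1 cDC2 cell and 2 in 1 cDC1 cell. Dendritic cells as a class were at least 6.20-fold lower in RTT, against a floor of 3 UMIs for the RTT library. DC3 made up 135 of 492 NTT and 57 of 526 RTT dendritic cells, so this bound was not a comparison within 1 population. Within DC3 the bound on the log2 ratio was -0.26, on 10 and 0 UMIs, which does not reach 2-fold. The class bound was -2.05 without the cDC2 cell with 6 UMIs, and -1.10 after thinning. DC3, at 12.7 CPM (6.08 to 23.3), alone had an interval wholly above that of NTT NK_cells (0 UMIs), and cDC2 (3.52 CPM) and cDC1 (3.06 CPM) had intervals that overlapped it.

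**Figure D5:**
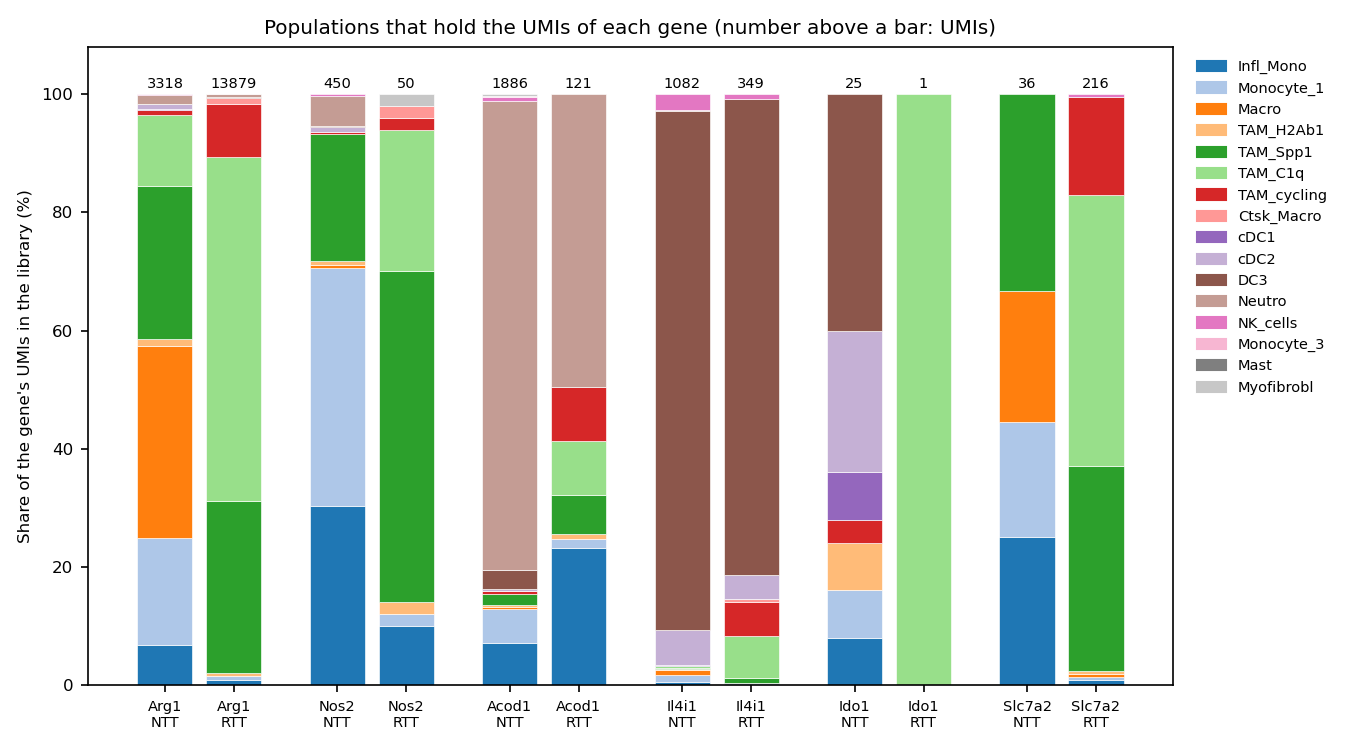
Share of each gene's UMIs (y axis, percent) held by each population (colours), per gene and library (x axis); numbers above the bars are UMIs. DC3 holds 87.8% and 80.5% of Il4i1, Neutro 79.5% and 49.6% of Acod1, and Arg1 moves from Macro, TAM_Spp1 and Monocyte_1 in NTT to TAM_C1q (58.1%) and TAM_Spp1 (29.2%) in RTT.

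The members therefore sat in different cells, and the libraries differ in which cells they hold: monocytes were 1615 of 2975 NTT and 199 of 4840 RTT cells, and macrophages 582 and 4009. How much of each difference went with population shares and how much with levels inside populations was split by averaging over both orders of exchange. For Arg1 the shares added 623 CPM and the levels added -482 CPM, for a net 141 CPM. TAM_C1q alone gave 669 and -508 CPM of this, and its NTT level rests on 17 cells. Shares accounted for 73.5% of the Il4i1 difference, 46.4% of that of Acod1, 31.2% of that of Nos2, 31.1% of that of Ido1 and 20.6% of that of Slc7a2. The weights matter: with NTT levels the Nos2 share was 55.9% and with RTT levels 6.63%, while for Il4i1 they were 75.5% and 71.5%.

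By class, the count of members at least 2-fold lower in RTT was 2 in monocytes (Nos2 and Il4i1, the latter on 1 RTT UMI), where 6.74% of 5326 genes with at least 200 UMIs were that low, and none was 2-fold higher (background 2.97%). In macrophages 4 members were that low (Nos2, Acod1, Il4i1 and Ido1), with a background of 6.18% of 8888 genes, and 0 that high (4.61%). None of these 4 reached 200 UMIs, and with no minimum count 12.3% of genes were that low. Il4i1 is among the 4 although it lay below the NK_cells level. Ido1 there rests on 3 and 1 UMIs (log2 -4.31, -10.02 to -0.67). In dendritic cells 3 were that low (Acod1, Il4i1 and Ido1), where 7.56% of 4407 genes were, or 12.3% with no minimum count, and 0 that high (4.83%). Ido1 there is a class bound on 18 and 0 UMIs, and within DC3 its log2 bound was -0.26. Of the members, 3 reached 200 UMIs in monocytes (Arg1, Nos2 and Acod1), 2 in macrophages (Arg1 and Slc7a2) and only Il4i1 in dendritic cells.

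The other genes of the arginine and polyamine pathway went both ways. Counts below are read against the 9.6% of all genes tested that were at least 2-fold lower over all cells and the 8.18% that were higher. Of 25 listed genes, 21 were in the matrix and 16 had at least 500 UMIs, of which 2 were at least 2-fold lower and 4 higher in RTT over all cells. The median log2 ratio was 0.34 against 0.10 for all genes tested. Arg2, the mitochondrial arginase, was lower, at 39.2 and 8.34 CPM (log2 -2.23, -2.42 to -2.05), and also within macrophages (-1.71). Smox, which oxidises spermine, was lower too (-1.66, -1.73 to -1.58). Srm, spermidine synthase, was higher, at 26.7 and 96.6 CPM (1.86, 1.72 to 1.99), and stood at 1.75 in monocytes, 1.13 in macrophages and 1.65 in dendritic cells. Ddah2, which degrades an inhibitor of nitric oxide synthases, was higher by 1.78. The 3 most abundant genes were Oaz1, the ornithine decarboxylase antizyme (0.22), Sat1, which acetylates polyamines (-0.70), and Gatm, which makes a creatine precursor from arginine (0.45 over all cells, 1.52 in monocytes and -0.55 in macrophages).

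Tetrahydrobiopterin, the cofactor of nitric oxide synthases, is made by Gch1, Pts and Spr and regenerated by Qdpr. Of 6 listed genes 5 were tested, with 2 higher (Spr and Qdpr), 0 lower and a median of 0.83. Spr went from 7.08 to 24.4 CPM (1.78, 1.53 to 2.05) and Qdpr from 32.7 to 88.6 CPM (1.44). Gch1, the rate-limiting step, was 75.3 and 41.6 CPM (-0.86, -0.96 to -0.76) over all cells and 89.9 and 113 CPM (0.33, 0.05 to 0.60) in monocytes, and Pts had a ratio of -0.52.

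On the itaconate side, 21 of 22 listed genes of itaconate handling and the citrate cycle were tested, with 3 higher (Idh2, Idh3a and Suclg2), 1 lower (Atf3) and a median of 0.66, where the shares of all genes were 8.18% higher and 9.6% lower, so these counts are near the background. Idh2, mitochondrial isocitrate dehydrogenase, went from 60.3 to 169 CPM (1.49, 1.40 to 1.58) and Idh3a from 39.3 to 89.3 CPM (1.19). Sdhb, a subunit of the succinate dehydrogenase that itaconate slows, had a ratio of 0.70 (0.65 to 0.75). Atf3 and Nfe2l2, stress factors that itaconate is known to act on, had ratios of -1.21 and 0.10, and Keap1, the brake on Nfe2l2, had -0.59. Slc25a11, a mitochondrial oxoglutarate carrier, had 0.58. Within macrophages none of the 21 reached 2-fold, and the median was 0.36.

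For tryptophan and kynurenine, 15 of 18 listed genes were in the matrix and 8 were tested, with 3 lower (Kmo, Haao and Tiparp), 0 higher and a median of -0.42. Kmo, which hydroxylates kynurenine, was at 79.6 and 34.7 CPM (-1.20, -1.30 to -1.09). Tiparp, a target gene of the aryl hydrocarbon receptor, was at 168 and 42.6 CPM (-1.98, -2.06 to -1.89), with -0.62 in monocytes, -1.81 in macrophages and -1.12 in dendritic cells. Ahr, the receptor itself, had -0.72. Slc3a2 and Slc7a5, which form a carrier of large neutral amino acids, had 0.04 and 0.43, and Slc7a5 was higher within macrophages (1.30, 0.86 to 1.78).

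Receptors and factors known to induce the members included 8 of 22 tested genes lower and 0 higher, where 9.6% and 8.18% of all genes were, with a median of -0.62 against 0.10 for all genes tested. Irf1, a transcription factor known to drive Nos2, was at 191 and 38.9 CPM (-2.30, -2.38 to -2.21). It was also lower in macrophages (-1.67), dendritic cells (-1.66) and monocytes (-1.04). The receptor subunits Ifngr1 (-0.01) and Ifngr2 (0.53) and the interleukin-4 receptor gene Il4ra (-0.34) did not reach 2-fold, nor did Cebpb (-0.51), which is known to drive Arg1, or the prostaglandin receptor gene Ptger4 (0.58).

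The genes most like each member were ranked by Pearson correlation of log2(CPM + 10) over 25 groups, each 1 population of 1 library with at least 20 cells, so groups of a library share its depth. For Arg1 they were Apoc2, an apolipoprotein (0.85), C5ar1, a complement receptor (0.83), and Slc7a8, an amino acid transporter (0.83). For Nos2 they were Rhov (0.93), Arrdc3 (0.85) and Smox (0.84), and for Acod1 Hcar2 (0.92), Hdc, which makes histamine (0.91), and G0s2 (0.89). Il4i1 went with the mature dendritic cell genes Ccr7 (0.96) and Ccl22 (0.95) and with Tmem123 (0.94). For the rare members, Ido1 and Slc7a2, the leading genes were Timd4 (0.82), Gtf2a1 (0.78) and Cmtr1 (0.75), and the chemokine gene Ccl24 (0.78), Gas7 (0.78) and Ccl9 (0.73). Among members, Arg1 and Slc7a2 had 0.73, Il4i1 and Ido1 0.63, Nos2 and Acod1 0.55 and Arg1 and Nos2 0.40, and the next pair, Nos2 and Slc7a2, had 0.305. Which genes led for each member depended on the settings. With log2(CPM + 1), Acod1 kept 0 of its leading genes. Arg1, Nos2 and Slc7a2 kept 1 each there, and Il4i1 and Ido1 kept 2 each. With groups of at least 50 cells, Arg1, Nos2 and Il4i1 kept 1 each, and Acod1, Ido1 and Slc7a2 kept 2 each.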

How the data were processed

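Leukocytes from tumours of each line were profiled with 3′ droplet libraries, 1 library per line. The authors ran Cell Ranger 6.1.1 on mm10, kept cells by gene number and by mitochondrial and ribosomal reads, removed ribosomal and mitochondrial genes, and deposited raw UMI counts of 12584 genes in 7815 cells with a population name per cell. CPM here therefore omit those genes. Monocytes are Infl_Mono, Monocyte_1 and Monocyte_3, macrophages every TAM population plus Macro and Ctsk_Macro, and dendritic cells the 3 DC names. UMIs were summed per library and class in Python 3.11.15 (scipy 1.17.1), ratios carry Clopper-Pearson intervals, and a count of 0 was set to 3 UMIs. No test was run, and the interval script was tested on simulated data. scrublet marked 0 of 7815 cells and has not worked, so doublets stayed in. R 4.3.3 with edgeR 4.0.16 and DESeq2 1.42.0 gave other scalings of the counts. Positions are from GENCODE M21. The members, lists and classes were chosen with earlier results of these data known. Named genes were the members, per list the 3 with most UMIs and the 2 with the largest ratio each way, and the 3 genes most like each member. Genes of Arg1-rich cells and the C1qa limit were chosen after values were seen. The tumour day follows the series record, and the study's methods name another day. The result of 1 listed gene is not reported here.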

Additional observations from a re-analysis of the deposited data

Results flagged for a closer look

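Arg1 differed in direction between cell populations of the same contrast. Its log2 ratio, RTT over NTT, was 0.96 in monocytes and -0.23 in macrophages, 1.50 in Infl_Mono, 0.67 in Monocyte_1, 0.14 in TAM_Spp1, 2.71 in TAM_cycling, 4.54 in DC3 and -2.17 in cDC2. These values were picked out because their counting intervals lie on opposite sides of 0. With 1 library per group the differences between populations were not tested. Without C1qa-rich cells the value of Infl_Mono was -0.07 and that of DC3 was 2.51.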

How the results depend on the processing

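Of 22 member ratios, 19 kept their sign under every alternative, and 31 of 157 alternative values lay beyond the counting interval of the reported value or, for bounds with 0 UMIs, clearly away from it. The exceptions in sign were Acod1 in monocytes (0.13 with at least 1500 genes per cell), Arg1 in dendritic cells (up to 0.12) and Slc7a2 in monocytes (-0.59 as a mean of per-cell CPM). Acod1 in monocytes ranged from -3.04 without C1qa-rich cells to 0.13, Arg1 in monocytes from 0.48 to 1.21, Acod1 over all cells from -5.64 to -3.88 and Slc7a2 in macrophages from 0.02 (thinned) to 0.79. Arg1 in macrophages ranged from -0.70 (thinned) to -0.19. The count of members 2-fold lower in monocytes was 1 after thinning and 1 without the cell with most UMIs, in place of 2, and that of members 2-fold higher was 1 as a mean of per-cell CPM and 1 after thinning, in place of 0. In dendritic cells 1 member in place of 3 was 2-fold lower as a mean of per-cell CPM. Acod1 and Ido1, with 0 RTT UMIs there, had no value in that setting, and Il4i1 stayed at -1.64. Likewise Il4i1 in monocytes, with 1 RTT UMI, had no value after thinning or without the cell with most UMIs. These lower counts therefore reflect missing values. The cause of the other moves was not tested. The part that went with population shares depends on whose levels weight it. With NTT and RTT levels it was 785% and 96.3% for Arg1, 55.9% and 6.63% for Nos2, 78.97% and 13.8% for Acod1, 75.5% and 71.5% for Il4i1, 63.9% and -1.76% for Ido1, and -20.0% and 61.2% for Slc7a2, so that the last 2 turn sign. With no minimum count, 16.2% of genes over all cells were 2-fold lower. Leaving out C1qa-rich cells or the leading population was chosen after seeing the data. Removing doublets was not run, since scrublet marked 0 of 7815 cells. No paired analysis was possible because each group held 1 sample. Ido1, with 26 UMIs, and every population with few RTT cells are limited by depth.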

Other observations

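Ctsk_Macro, the cells with osteoclast-like markers, occurred in RTT alone, with 280 cells and a median depth of 13736.5 UMIs. They held 132 Arg1 UMIs in 44 cells, 32.4 CPM (27.1 to 38.5), of which 33 cells had 1 UMI each, and after thinning Arg1 was found in 3.60% of them. Nos2 gave 1 UMI and Il4i1 2 UMIs there, and Acod1, Ido1 and Slc7a2 gave 0. TAM_H2Ab1, the macrophages named for an antigen presentation gene, held Arg1 at 16.8 CPM in 169 NTT cells, with 25 of 37 UMIs in 1 cell, and at 183 CPM (142 to 233) in 36 RTT cells, 8 of which had the gene. The 2 RTT cells of the mast cell population held no UMI of any member.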
